A study of Sus scrofa with 30 samples.

Results

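This account compares the epithelial with the mesenchymal tissue of normal teats taken from pigs that also carried inverted teats. The arrays were chosen by 3 labels (an affected animal, a normal teat, and the tissue), which gave 5 epithelial and 5 mesenchymal arrays out of 30, with both tissues of an animal joined by the animal number. Affected animals are pigs classed, by eye and by touch, to the group with inverted teats, and the normal teat of such a pig is one that was not inverted itself. The series also holds 10 arrays from inverted teats of the same 5 animals and 10 arrays from normal teats of 5 non-affected animals, with 1 array per tissue and teat. All animals were peripubertal pigs of commercial dam lines, sampled at slaughter at a mean end weight of 110 kg. Animal 963 was German Landrace, animals 964, 1037 and 1059 were Large White x German Landrace, and animal 1103 was Pietrain x (Large White x German Landrace). The labels do not describe how the layers were separated, so "epithelium" and "mesenchyme" below stand for the tissue labels of the pieces.

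A teat is an outgrowth of skin around milk ducts. Its ducts are lined by luminal epithelial cells that express simple keratins and secrete antimicrobial proteins, and these rest on basal cells. Around them lies mesenchyme, which is fibroblasts, collagen, vessels, nerves and bundles of smooth muscle, and deeper tissue adds fat and striated muscle. In the embryo the bud epithelium secretes the parathyroid hormone-related protein PTHLH, and the mesenchyme below it answers through the receptor PTH1R; in mice this exchange is needed for the nipple to form. An inverted teat fails to protrude above the skin around it.

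The values are log2 summaries of Affymetrix probe sets, on which a difference of 1 is a factor of 2. Array medians lay between 5.73 and 5.94, and the lowest value was 0, at which 425 to 742 probe sets of an array were listed. Per-animal values are given in the order 963, 964, 1037, 1059 and 1103 throughout, epithelium before mesenchyme. A piece with fewer cells of a type and a piece with less of their RNA per cell cannot be told apart in such bulk samples.

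The tissue labels were first set against cell type markers. The mean log2 level of 18 luminal epithelial genes was 8.32, 8.19, 7.25, 8 and 8.14 on the epithelial arrays, against 8.32, 8.27, 4.02, 4.70 and 4.45 on the mesenchymal arrays. The mesenchymal arrays of animals 963 and 964 therefore carried these markers at the epithelial level, against their label. KRT8, a keratin of simple epithelia, read 11.11, 10.22, 9.88, 10.67 and 9.79 in epithelium and 11.08, 10.88, 5.52, 6.91 and 3.66 in mesenchyme. KRT19, another such keratin, EPCAM, an epithelial adhesion molecule, and CDH1, the cadherin of epithelial junctions, split the mesenchymal arrays in the same way. The mean of 12 fast skeletal muscle genes was 9.81, 3.06, 5.05, 3.42 and 3.52 on the epithelial arrays and 11.88, 10.94, 9.20, 12.33 and 9.62 on the mesenchymal arrays, so the epithelial array of animal 963 lay within the mesenchymal range. A list of 27 fibroblast and matrix genes did not separate the tissues, with 10.30 to 10.65 in epithelium and 9.84 to 10.78 in mesenchyme. VIM, an intermediate filament of mesenchymal cells, was high in both layers, with a mean of 13.09 ± 0.14 in epithelium and 13.32 ± 0.27 in mesenchyme (SD, n = 5 each). Results are therefore also given without animals 963 and 964, a choice made after these levels were seen.

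**Figure D1:**
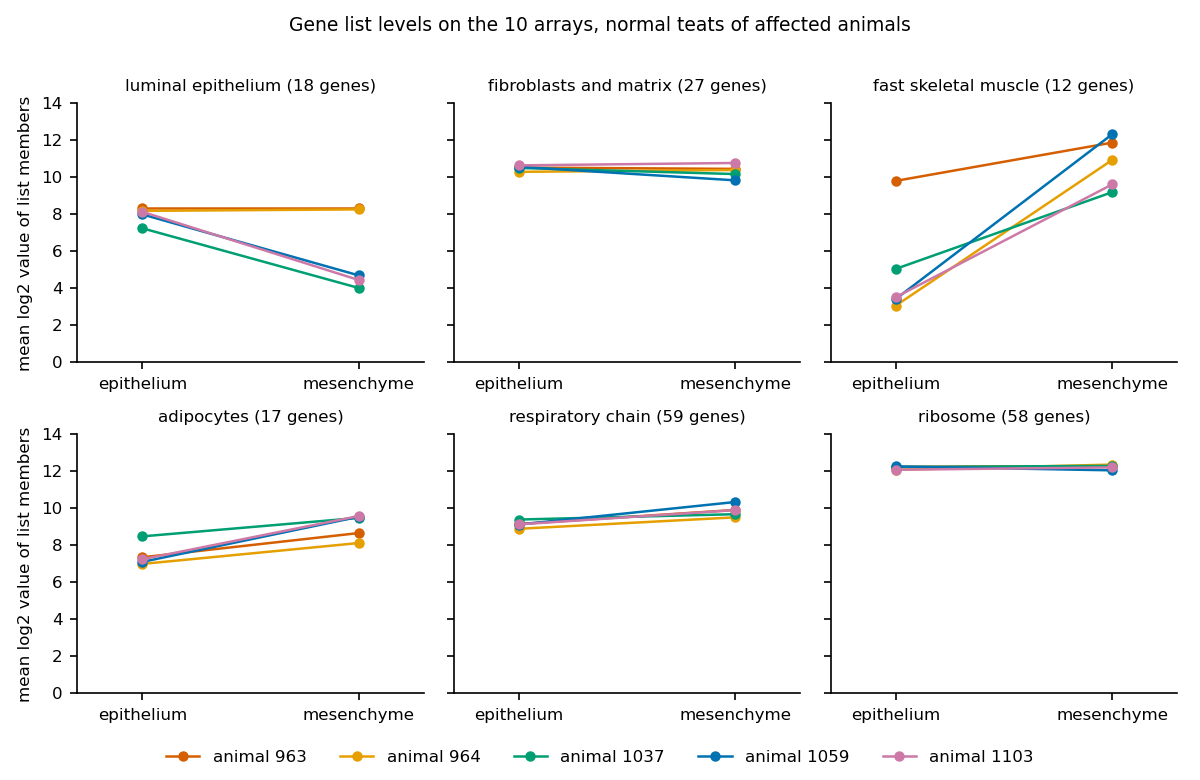
Mean log2 value of the members of 6 gene lists (vertical axis) in the epithelial and the mesenchymal array of each animal, normal teats of affected animals; a line joins the arrays of 1 animal. The luminal lines of animals 963 and 964 are flat, at 8.19 to 8.32 on all 4 arrays, while the lines of the other 3 animals fall to between 4.02 and 4.70 in mesenchyme; the matrix list reads 10.57 in epithelium and 9.84 in mesenchyme in animal 1059.

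Of 17141 probe sets tested, 278 were higher in epithelium and 1102 were higher in mesenchyme. These are 8.05% of the probe sets, 1.62% in the epithelial and 6.43% in the mesenchymal direction (limma with the animal as a block, adjusted p under 0.05; 5655 had an unadjusted p under 0.05, and the median of all differences was -0.07). Counted as genes, each by its brightest probe set, 64 of 5965 passed in the epithelial (1.07%) and 559 in the mesenchymal direction (9.37%); these are the shares against which the list counts below are read. A difference of more than 2 was found in 10 of the 278 and in 153 of the 1102 probe sets. The count rests on single animals: without animal 1103 no probe set passed (4286 with an unadjusted p under 0.05, smallest adjusted p 0.057), and without animal 1037 or 1059 the count was 305 or 285, of which 19 or 7 were higher in epithelium. Without animals 963 and 964 it was 805 higher in epithelium (4.65%) and 759 higher in mesenchyme (4.39%).

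The animals differed in how far their layers were apart. The epithelial and the mesenchymal array of one animal correlated over the tested probe sets with r = 0.952, 0.917, 0.910, 0.761 and 0.794, and 800, 1022, 1339, 4515 and 4603 probe sets lay more than 1 apart. Animals 1059 and 1103 thus held the widest differences, and animal 963 the narrowest. The differences of all probe sets correlated between pairs of animals with r from 0.41 (964 with 1037) to 0.69 (963 with 1059), which describe 5 animals across probe sets.

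Striated muscle genes gave the widest gap between the layers. All 11 tested members of the fast skeletal muscle list were higher in mesenchyme (median difference -6.23), as were 15 of 17 sarcomere genes common to muscle fibres (median -5.25) and 5 of 7 slow muscle genes (median -2.42). MYLPF, the regulatory light chain of fast myosin, read 11.68, 0, 6.17, 2.02 and 0 in epithelium and 13.48, 12.74, 11.83, 13.38 and 11.72 in mesenchyme. The tissues did not overlap, but the lowest mesenchymal value and the epithelial value of animal 963 were only just apart. Its log2 difference was -8.66 ± 1.47 (SE from limma, n = 5 animals, adjusted p = 0.0197, lower in epithelium in 5 of 5). TNNT3, a fast troponin T, differed by -8.54 ± 1.27 (SE, adjusted p = 0.0143). MYH2, a fast myosin heavy chain, read 10.7, 2.34, 2.81, 0 and 0.89 in epithelium and 13.31, 12.5, 4.86, 13.62 and 9.54 in mesenchyme. Here the mesenchymal array of animal 1037 was lower than the epithelial array of animal 963, and the tissues overlapped (-7.42 ± 1.55, adjusted p = 0.0326).

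The contractile proteins were joined by the machinery that releases and recovers calcium. RYR1, the calcium release channel of skeletal muscle, read 6.47, 0, 0.9, 0.81 and 0 in epithelium and 10.02, 8.6, 7.58, 11.2 and 7.02 in mesenchyme, a difference of -7.25 ± 0.8 (SE, adjusted p = 0.0132). SLN, sarcolipin, a small inhibitor of the calcium pump, differed by -5.99 ± 0.75 (adjusted p = 0.0132). Muscle enzymes followed: PGAM2, the muscle phosphoglycerate mutase, by -6.23 ± 0.77, AMPD1, the muscle AMP deaminase, by -6.1 ± 0.65, and PYGM, the muscle glycogen phosphorylase, by -5.02 ± 0.63 (adjusted p = 0.0132 for each). PYGM was above the 30th percentile on all 10 arrays and its groups did not overlap, with 4.82 to 9.22 in epithelium and 10.17 to 13.22 in mesenchyme. Of the slow fibre genes, TNNT1, the slow troponin T, differed by -5.3 ± 0.82 (adjusted p = 0.0155) and MYL2, the slow myosin light chain, by -3.39 ± 0.68 (adjusted p = 0.0297). TNNT1 was at or under the 30th percentile on all 5 epithelial arrays, so it was tested only through its mesenchymal values. With all values under that percentile raised to it, TNNT1 differed by -2.55 (adjusted p = 0.032). DES, desmin of all muscle types, read 8.16, 6.89, 7.57, 6.63 and 9.32 against 10.96, 9.65, 9.62, 11.86 and 9.13, and was slightly higher in the epithelial array of animal 1103 than in the mesenchymal one (-2.53 ± 0.62, adjusted p = 0.0454).

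The sizes of the muscle differences depend on dim values, and the number of calls on the variance model (4 of 11 fast muscle genes with a trended and robust variance). MYLPF lay at or under its array's 30th percentile on 3 of 5 epithelial arrays, and with all values under that percentile raised to it the differences of MYLPF, TNNT3 and RYR1 were -6.25, -6.07 and -3.85. In animal 963 the fast muscle median was -2.41, against -7.78, -4.95, -9.25 and -6.72 in the others. Leaving out 1 animal left 6 to 11 of the 11 fast muscle calls, except that none remained without animal 1103.

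**Figure D2:**
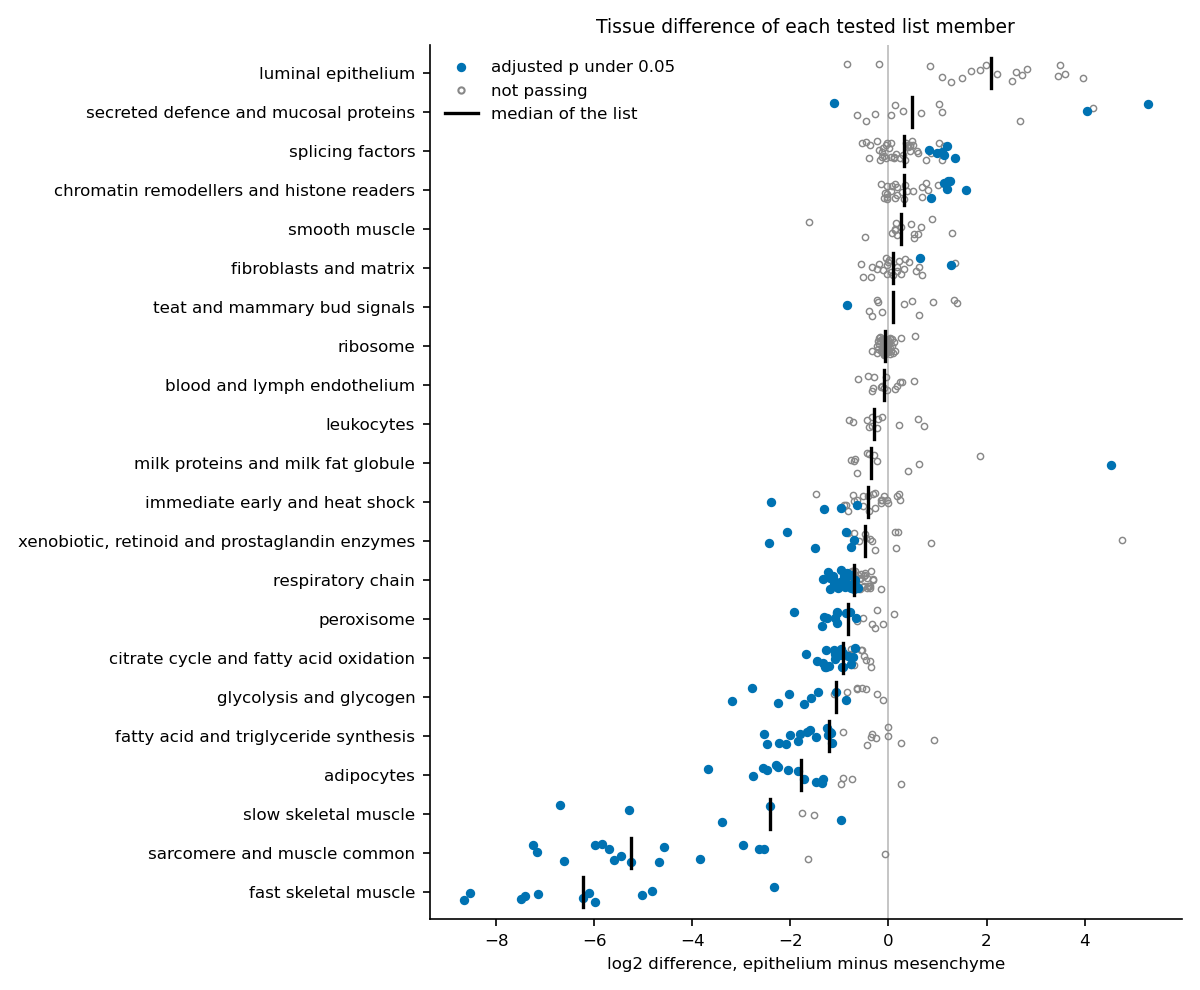
Log2 difference, epithelium minus mesenchyme (horizontal axis), of every tested member of 22 gene lists; filled points passed at an adjusted p under 0.05, open points did not, and the bar is the list's median. The muscle lists reach to -8.66, the adipocyte list reaches to -3.68 and the glycolysis list to -3.19, and the luminal list lies mostly above 0 with no filled point.

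Genes of fat cells formed the second group that was higher in mesenchyme. Of 16 tested adipocyte genes 12 were higher in mesenchyme and none in epithelium, with a median difference of -1.79, against -0.07 over all probe sets. ADIPOQ, the hormone adiponectin made by fat cells, read 9.65, 7.91, 11.29, 8.51 and 8.95 in epithelium and 11.44, 10.62, 12.52, 12.16 and 12.31 in mesenchyme. The groups overlapped through the high epithelial array of animal 1037, but every animal had the lower value in epithelium (-2.55 ± 0.35, adjusted p = 0.0136). GPD1, the glycerol-3-phosphate dehydrogenase that supplies the triglyceride backbone, read 6.9, 5.38, 7.92, 5.95 and 5.72 against 10.06, 8.97, 9.75, 11.41 and 10.1 without overlap (-3.68 ± 0.44, adjusted p = 0.0132). LPL, which releases fatty acids from lipoproteins, differed by -2.26 ± 0.27, CIDEA, a lipid droplet protein, by -2.3 ± 0.29, and PPARG, the transcription factor of fat cell differentiation, by -1.47 ± 0.22. SLC2A4, ACACA, PCK1 and AGPAT2 were the 4 members that did not pass (-0.97, -0.92, -0.75 and 0.25). The list medians were -1.29, -1.52, -1.24, -2.39 and -2.57 by animal, with animal 1037 beside animals 963 and 964, and without animals 963 and 964 13 of 16 members passed.

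Enzymes that make fat went the same way. In a list of fatty acid and triglyceride synthesis, added after values were seen, 15 of 24 genes were higher in mesenchyme and none in epithelium (median -1.21). ME1, the malic enzyme that supplies NADPH, read 8.27, 7.77, 10.02, 8.03 and 7.93 in epithelium and 10.41, 10.25, 11.34, 11.6 and 11.13 in mesenchyme (-2.54 ± 0.31, adjusted p = 0.0132). PC, pyruvate carboxylase, differed by -2.24 ± 0.27, ACSS2, which activates acetate, by -2.1 ± 0.26, and the elongase ELOVL6 by -1.67 ± 0.22 (adjusted p = 0.0132 for each). Also among the lists added afterwards, 5 of 9 pentose phosphate and NADPH genes, 11 of 18 peroxisome genes and 4 of 11 cholesterol synthesis genes were higher in mesenchyme, and none of any of them in epithelium. TKT, transketolase, led the pentose phosphate enzymes in size (-1.62 ± 0.25), and ACAA1, the peroxisomal thiolase, the peroxisome list (-1.92 ± 0.26). SC5D, a late enzyme of cholesterol synthesis, differed by -1.2 ± 0.18, and none of the 4 cholesterol genes passed without the animal block. Single genes of this kind, chosen after values were seen, were SLC2A5, a fructose carrier (-2.25 ± 0.26), AGT, angiotensinogen (-2.5 ± 0.34), and RBP7, a retinol-binding protein of fat tissue (-2.07 ± 0.17); RBP7 was under the 30th percentile on all 5 epithelial arrays.

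Mitochondrial energy metabolism was higher in mesenchyme by smaller amounts. Of 59 respiratory chain genes 27 passed, all higher in mesenchyme, and the list's median difference was -0.7; no member had a difference above 0. By complex, 17 of 33 complex I genes passed (the NADH dehydrogenase), 3 of 4 of complex II, none of 2 of complex III, 2 of 6 of complex IV (cytochrome oxidase), 4 of 13 of complex V (the ATP synthase), and cytochrome c itself. SDHA, the flavoprotein of complex II, read 8.79, 8.41, 9.33, 8.64 and 8.68 in epithelium and 9.72, 9.4, 10.05, 10.51 and 10.31 in mesenchyme, without overlap (-1.23 ± 0.21, adjusted p = 0.0197). NDUFS7 of complex I differed by -1.12 ± 0.2 and ATP5A1, the alpha subunit of ATP synthase, by -0.89 ± 0.16 (adjusted p = 0.022 and 0.0226). This count depends on the scale and on the animals: 14 of 59 passed after quantile normalization, where ATP5A1 did not (-0.44, adjusted p = 0.077), and 5 of 59 passed without animal 963 or 1037, 13 without animal 964 and none without animal 1059 or 1103. The 5 animals' medians were -0.72, -0.61, -0.27, -1.21 and -0.8.

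Upstream of the respiratory chain, 21 of 31 genes of the citrate cycle and fatty acid oxidation were higher in mesenchyme and none in epithelium (median -0.92). Without animal 963, 964, 1037, 1059 or 1103 this count was 11, 15, 7, 6 or 0. CS, citrate synthase, read 10.15, 10.01, 10.87, 10.12 and 10.14 against 11.21, 11.11, 11.65, 11.86 and 11.8 (-1.27 ± 0.19, adjusted p = 0.0143). PDK4, the kinase that turns pyruvate dehydrogenase off during fat burning, differed by -1.68 ± 0.25, and ECHS1, of the fatty acid oxidation spiral, by -1.11 ± 0.17 (adjusted p = 0.0143 for each). Of 17 glycolysis and glycogen genes 9 were higher in mesenchyme (median -1.07). They include the muscle form of phosphofructokinase, PFKM, with 7.98, 6.5, 6.89, 6.83 and 6.9 in epithelium and 11.1, 9.77, 8.69, 12.44 and 9.05 in mesenchyme (-3.19 ± 0.48), and the aldolase ALDOC (-2.25 ± 0.34), which unlike PFKM was highest on the epithelial array of animal 1037 (10.29). PFKL and PFKP, the liver and platelet forms, did not pass (-0.11 and -0.64). Of 15 genes of branched-chain amino acid breakdown, a list added after values were seen, 7 were higher in mesenchyme, among them IVD, isovaleryl-CoA dehydrogenase (-1.74 ± 0.28, adjusted p = 0.0175). Their count was 2, 5, 1, 0 or 0 without animal 963, 964, 1037, 1059 or 1103. Both muscle and fat cells use these pathways, and markers of both were also higher in mesenchyme here. In inverted teats no fast muscle gene passed (median -2.76). There 13 adipocyte genes (median -1.87) and 58 respiratory chain genes (median -0.91) were higher in mesenchyme. The part of either cell type in the metabolic lists was not tested.

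**Figure D3:**
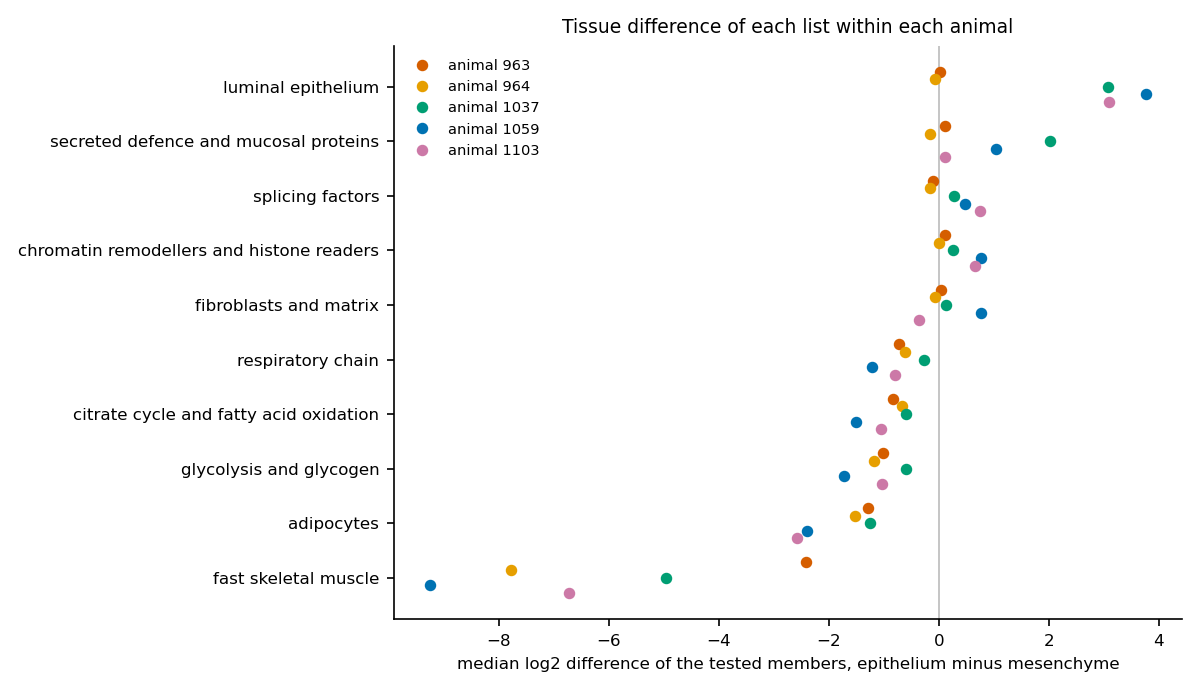
Median log2 difference of the tested members of 10 gene lists (horizontal axis), epithelium minus mesenchyme, 1 point per animal. The adipocyte and metabolic medians lie below 0 in all 5 animals, whereas the luminal median is 0.02 and -0.06 in animals 963 and 964 and 3.07 to 3.77 in the other 3.

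Several smaller lists also had members that were higher in mesenchyme, against 559 of 5965 (9.37%) over all genes. The shares called in the cell cycle and duct transport lists were below this, and that of the heat shock list was little above it. GHR, the growth hormone receptor, read 5.86, 5.55, 6.42, 5.39 and 5.81 in epithelium and 6.88, 6.75, 7.34, 7.19 and 7.44 in mesenchyme (-1.31 ± 0.19, adjusted p = 0.0138), and was 1 of 4 passing genes among 17 on the hormone list. The others were HSD17B4, a peroxisomal enzyme also counted in steroid metabolism (-1.32 ± 0.19), HSD17B8 (-0.82 ± 0.18) and STAT5B, a signal carrier of growth hormone (-0.92). ESR1, the oestrogen receptor, did not pass: it read 8.35, 8.35, 8.46, 8.55 and 8.53 in epithelium and 8.35, 8.59, 7.03, 5.81 and 6.68 in mesenchyme (1.15 ± 0.42, adjusted p = 0.1). Of 19 xenobiotic and retinoid genes 6 were higher in mesenchyme, with GPX3, a secreted glutathione peroxidase (-2.43 ± 0.45), RBP4, the plasma retinol carrier (-2.06 ± 0.29), and MGST1, a membrane glutathione transferase (-1.49 ± 0.18). RBP4 did not pass without the animal block (adjusted p = 0.091), and its other probe set differed by -0.57 (adjusted p = 0.2). Of 27 immediate early and heat shock genes 4 passed, all chaperones or co-chaperones: HSPB8 (-2.39 ± 0.55), CRYAB (-1.31 ± 0.26), BAG3 (-0.96 ± 0.22) and DNAJB1 (-0.64); CRYAB and HSPB8 are abundant in muscle. None of the 27 passed without animal 963, 1037 or 1103, and 1 without animal 964 or 1059 or without the block. CDKN1A, an inhibitor of cell division, was the 1 of 18 cell cycle genes that passed (-1.85 ± 0.3, adjusted p = 0.0169), and CA3, a carbonic anhydrase of muscle and fat, the 1 of 14 genes on the list of duct transport (-2.14 ± 0.25).

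On the epithelial side the largest differences among genes that passed were in secreted proteins. CBR1, of the xenobiotic and retinoid list, differed by 4.76 but did not pass (adjusted p = 0.0621). NPG4, protegrin 4, an antimicrobial peptide of the pig, read 5.93, 7.59, 7.09, 9.27 and 8.62 in epithelium and 5.14, 6.89, 0, 0 and 0 in mesenchyme (5.29 ± 1.32, SE, n = 5 animals, adjusted p = 0.0474, higher in epithelium in 5 of 5). The mesenchymal value was listed at 0 in 3 animals and was at 5.14 and 6.89 in animals 963 and 964, of which the second lies within the epithelial range. Its 5 other probe sets were dim, with means of 2.57 to 4.58, and differed by -0.15 to 0.51. LTF, lactoferrin, the iron-binding protein of milk and mucosal secretions, read 8.39, 10.09, 9.28, 8.37 and 9.84 in epithelium and 8.12, 8.15, 0, 4.29 and 2.79 in mesenchyme, without overlap (4.53 ± 1.15, adjusted p = 0.0494). WFDC2, a secreted protein of the whey acidic protein family made by glandular epithelia, read 8.86, 9.41, 8.36, 8.74 and 9.25 against 8.16, 8.86, 2.23, 3.41 and 1.69 (4.05 ± 1.01, adjusted p = 0.0476). A dimmer probe set of WFDC2 differed by -0.08. In mesenchyme all 3 genes were high in animals 963 and 964 and low in the others, as the keratins were. None of the 3 passed without animal 1037 or 1059, nor with a trended and robust variance. Raising dim values to the 30th percentile left differences of 2.56 for NPG4, 3.21 for LTF and 2.79 for WFDC2.

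NPG4 and WFDC2 were 2 of 14 tested secreted defence genes, of which 1, the beta-defensin DEFB1, was lower in epithelium. DEFB1 read 5.11, 4.96, 5.12, 5 and 4.99 in epithelium and 5.95, 5.13, 5.99, 6.7 and 7.01 in mesenchyme (-1.12 ± 0.27, adjusted p = 0.0441). MPZL2, an adhesion protein of epithelia, followed with 3.44 ± 0.77 (adjusted p = 0.0374; 1.13 with dim values raised to the 30th percentile, under which 3 mesenchymal arrays lay), and ALCAM, a cell adhesion molecule, with 1.91 ± 0.43 (adjusted p = 0.0381), 8.9, 9.44, 7.9, 9.41 and 9.47 in epithelium against 8.25, 8.84, 6.02, 5.87 and 6.62 in mesenchyme. STEAP4, a metalloreductase, was higher in epithelium by 2.05 ± 0.47 (1.07 with dim values raised), PPP1R14D, an inhibitor of protein phosphatase 1, by 1.85 ± 0.45, and LOC100737113, which carries no name in the tables used, by 1.91 ± 0.48. CCL21, a chemokine of lymphatic vessels, read 10.46, 9.44, 9.31, 9.79 and 8.84 against 9.95, 8.92, 7.13, 7.33 and 6.41 (1.62 ± 0.34, adjusted p = 0.034). By animal PPP1R14D differed by 0.52, 0.31, 2.18, 3.32 and 2.92, and LOC100737113 by 0.26, 0.52, 3.28, 2.12 and 3.37. MPZL2, ALCAM, PPP1R14D, LOC100737113 and CCL21 did not pass without the animal block (adjusted p = 0.059, 0.065, 0.081, 0.085 and 0.11). PTGFR, the receptor for prostaglandin F2 alpha, separated the tissues in all 5 animals: 6.54, 6.95, 7.77, 7.8 and 8.08 in epithelium and 5.45, 5.23, 6.22, 5.99 and 6 in mesenchyme. Its difference of 1.65 ± 0.18 (adjusted p = 0.0132) was 1.08, 1.72, 1.56, 1.81 and 2.08 by animal, with no split between animals 963 and 964 and the rest.

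**Figure D4:**
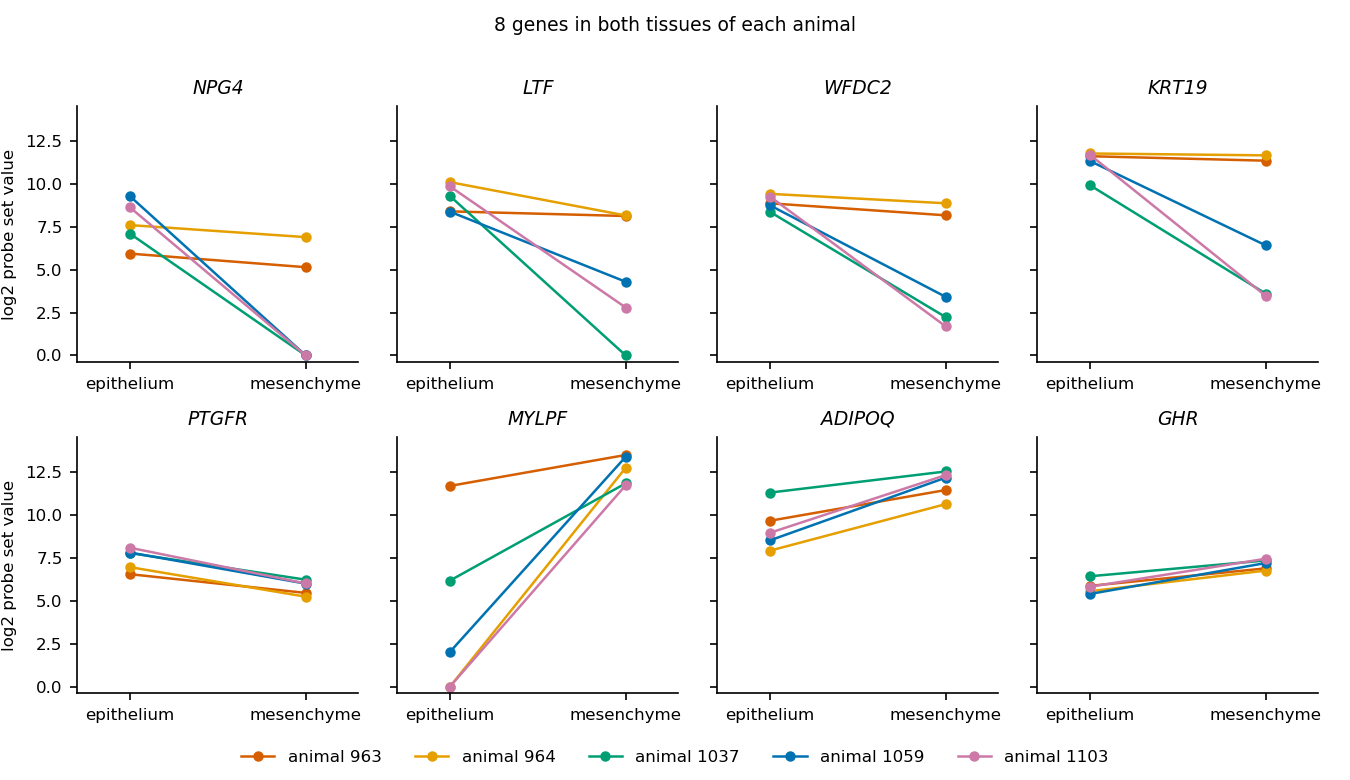
Log2 probe set value (vertical axis) of 8 genes in the epithelial and the mesenchymal array of each animal. NPG4, LTF, WFDC2 and KRT19 drop less in mesenchyme in animals 963 and 964 (by up to 1.94, for LTF in animal 964) than in the other 3, PTGFR drops in all 5, and MYLPF, ADIPOQ and GHR are higher in mesenchyme in all 5.

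The luminal epithelial genes themselves did not pass. None of 18 was called in either direction (median 2.1), although 16 of the 18 differences were above 0. KRT19 read 11.6, 11.76, 9.91, 11.32 and 11.68 in epithelium and 11.34, 11.65, 3.6, 6.41 and 3.47 in mesenchyme (3.96 ± 1.14, adjusted p = 0.0634), and KRT8 and KRT18 differed by 2.72 ± 0.92 and 3.61 ± 1.23 (adjusted p = 0.0862 and 0.088). EPCAM differed by 3.46 ± 1.07 and CDH1 by 2.82 ± 0.89 (adjusted p = 0.0725 and 0.0765). The luminal median was 0.02 and -0.06 in animals 963 and 964, against 3.07, 3.77 and 3.09 in animals 1037, 1059 and 1103. Without animals 963 and 964, 16 of 18 passed with a median of 3.36; as those animals were left out for their luminal markers, this count describes the remaining 3 and supports nothing further. After quantile normalization 8 of 18 were higher in epithelium and 1 in mesenchyme, and with dim values raised to the 30th percentile 9 and 1. PROM1, a surface protein of some luminal cells, went the other way (-0.85 ± 0.22, adjusted p = 0.051) and is that 1 member, with an adjusted p of 0.049 and 0.033 in these fits; MUC1 was at -0.2.

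Other epithelial lists had few calls. Of 9 junction and desmosome genes none passed, with DSP, desmoplakin, at 2.9 ± 0.86 (adjusted p = 0.0675). TRIM29 and COL17A1 were the only basal cell genes of 5 measured that were tested (1.15 ± 0.4 and 0.14 ± 0.22; neither passed), and none of 7 keratinocyte genes passed (median 0.17). Among 6 epithelial transcription factors only FOXA2 passed, and it was lower in epithelium (-1.07 ± 0.2, adjusted p = 0.0262); it was under the 30th percentile on all 5 epithelial arrays, and the call was lost when dim values were raised to it (adjusted p = 0.077). FOXA1 and TFAP2B, named after their values were seen, differed by 3.95 and 3.19 without passing.

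Casein levels split the animals rather than the tissues. CSN2, beta-casein, read 15.06, 13.16, 4.4, 5.3 and 4.63 in epithelium and 14.76, 16.14, 4, 5.5 and 5.55 in mesenchyme, and CSN3, kappa-casein, 8.4, 8.14, 4.62, 0 and 0 against 8.79, 10.79, 3.1, 0 and 0. Animals 963 and 964 were thus high in both tissues, the same animals that carried luminal markers in mesenchyme. Neither casein passed between the tissues (-0.68 ± 0.45 and -0.3 ± 0.49, adjusted p = 0.317 and 0.69). LTF was the only 1 of 12 tested milk genes that did.

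Connective tissue and smooth muscle genes gave few calls. Of 27 fibroblast and matrix genes 2 were higher in epithelium and none in mesenchyme, with a median of 0.1. They were ASPN, asporin, a small proteoglycan, with 11.04, 11.21, 10.04, 10.49 and 10.28 in epithelium and 10.02, 10.67, 8.66, 9.27 and 8.05 in mesenchyme (1.28 ± 0.24, adjusted p = 0.0248), and the collagen COL5A2 (0.65 ± 0.17, adjusted p = 0.0499). Neither passed without the animal block (adjusted p = 0.094 and 0.12), and another probe set of COL5A2 differed by 0.04 (adjusted p = 0.91). POSTN, periostin, a matrix protein of connective tissue, read 12.03, 11.66, 10.8, 11.62 and 12.39 against 11.83, 11.92, 8.58, 9.69 and 9.68. This brightest probe set did not pass (1.36 ± 0.43, adjusted p = 0.076), but another POSTN probe set did, at 2.15 (adjusted p = 0.048). After quantile normalization 6 of 27 were higher in epithelium. None of 15 smooth muscle genes passed (median 0.26), with ACTA2, smooth muscle actin, at 0.26 ± 0.24 (adjusted p = 0.476) and levels of 11.97 to 12.5 in epithelium and 11.06 to 12.72 in mesenchyme.

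Some genes of splicing and chromatin proteins were also higher in epithelium, and both lists were added after values were seen. Of 44 splicing factors 6 passed, all higher in epithelium (median 0.32), and so did 6 of 29 chromatin remodellers and histone readers (median 0.31). Among the splicing factors 14 differences were below 0. The splicing medians were -0.11, -0.16, 0.27, 0.47 and 0.75 by animal, and the chromatin medians 0.11, 0.01, 0.26, 0.76 and 0.66. In inverted teats 2 splicing factors passed in each direction, and 6 chromatin genes passed as higher in epithelium. DDX46, a helicase of the early spliceosome, read 6.83, 7.32, 7.08, 7.83 and 7.46 in epithelium and 6, 6.89, 5.3, 6.01 and 5.57 in mesenchyme (1.35 ± 0.25, adjusted p = 0.0251). PNISR, an SR-type protein, differed by 1.2 ± 0.26 and U2SURP by 1.13 ± 0.23. BAZ2B, a bromodomain protein, read 6.67, 7.42, 5.73, 7.17 and 6.96 against 5.68, 6.37, 4.22, 4.8 and 4.94 (1.59 ± 0.23, adjusted p = 0.0143), and KMT2E and ARID4B differed by 1.14 ± 0.25 and 1.2 ± 0.26. KMT2E did not pass without the animal block (adjusted p = 0.055), and its other probe sets differed by 0.58 (adjusted p = 0.11), 0.12 and -0.15. ARID4B was at or under the 30th percentile on 4 of 5 mesenchymal arrays. It still passed with dim values raised to that percentile (0.87, adjusted p = 0.016). None of the 6 splicing calls remained without animal 1037, 1059 or 1103, and the chromatin count was 1, 1 and 0 without these animals and 2 without the animal block. Transcription factors and signals picked out in the same way were MEIS1 (0.87 ± 0.19), RUNX1T1 (1.26 ± 0.3), RBPJ, the DNA-binding partner of Notch (1.11 ± 0.24), FOXP1 (0.84 ± 0.2) and DKK2, a secreted modulator of Wnt signalling (0.91 ± 0.23). The DKK2 call was lost without the block (adjusted p = 0.16), and its other probe set differed by -0.1 (adjusted p = 0.67). RBPJ did not pass without the block either (adjusted p = 0.058). Its other probe sets, at 0.62 and 0.58, did not pass (adjusted p = 0.092 and 0.084), nor did the other MEIS1 probe set, at 0.59 (adjusted p = 0.078). MEIS1 did not overlap between the tissues, with 8.19 to 8.55 in epithelium and 7.16 to 8 in mesenchyme.

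Signals of the teat bud showed 1 call in 12 tested genes, near the share of all genes that were higher in mesenchyme (9.37%). HOXD8, a positional transcription factor, read 7.46, 7.21, 8.21, 7.48 and 7.89 in epithelium and 8.48, 8.04, 8.44, 8.98 and 8.53 in mesenchyme (-0.84 ± 0.2, adjusted p = 0.0437). PTHLH read 8.19, 7.09, 6.75, 7.38 and 6.68 in epithelium and 7.9, 7.16, 6.21, 5.1 and 5.18 in mesenchyme, and did not pass (0.91 ± 0.33, adjusted p = 0.102). Its receptor PTH1R ranged over 4.9 to 5.86 in epithelium and 4.58 to 6.46 in mesenchyme (-0.21 ± 0.3, adjusted p = 0.647), and MSX1, a homeobox factor of bud growth, differed by -0.34 ± 0.23 (adjusted p = 0.317). LEF1, a transcription factor of Wnt signalling, was too dim to be tested, with 3.2 to 4.94 in epithelium and 3.68 to 4.38 in mesenchyme. GATA3, a factor of luminal cells, followed the keratins: 9.74, 9.81, 9.15, 10.06 and 9.61 against 9.85, 10.1, 7.36, 6.9 and 7.17 (1.4 ± 0.5, adjusted p = 0.0976). HOXA9, chosen after values were seen, was lower in epithelium (-1.52 ± 0.38, adjusted p = 0.0482), with overlap between the tissues. By animal it differed by -1.1, -1.17, -0.83, -3.55 and -0.94. The call was lost without the animal block (adjusted p = 0.12) and without animals 963 and 964 (adjusted p = 0.059).

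Cell types that could be shared by both pieces gave no calls. None passed of 15 endothelial genes (median -0.09, PECAM1 at -0.06 ± 0.18, adjusted p = 0.858), of 12 leukocyte genes (median -0.28), of 4 Schwann cell genes (median 0.44) or of 3 melanocyte genes (median 0.22). PTPRC, the common leukocyte antigen, was too dim to be tested, with 3.86 to 5.27 in epithelium and 4.03 to 5.17 in mesenchyme. None passed either of 57 ribosomal protein genes (median -0.07), of 44 secretory pathway genes (median -0.09), of 22 interferon response genes (median -0.11) or of 10 mesenchymal transcription factors (median 0.04). The ribosomal list had mean levels of 12.09 to 12.27 in epithelium and 12.06 to 12.37 in mesenchyme.

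The same tissue contrast in normal teats of 5 non-affected animals allows a check in other pigs. There, 804 probe sets were higher in epithelium (4.69%) and 1678 higher in mesenchyme (9.79%). Of the 278 probe sets higher in epithelium in affected animals 268 were tested in the non-affected animals, all 268 had the same sign, and 164 were called there, which is 59.0% of the list and 20.4% of the non-affected list. Of the 1102 higher in mesenchyme 1067 of 1069 tested had the same sign and 831 were called, 75.4% of this list and 49.5% of the other. The median difference of these 268 probe sets was 1.06 in affected and 0.98 in non-affected animals, and that of the 1069 was -1.07 in both. NPG4 differed by 4.07 in the non-affected animals (adjusted p = 0.018), LTF by 3.3 (0.017), WFDC2 by 4.05 (0.035), PTGFR by 2.11 (0.019), ADIPOQ by -2.82 (0.022), GPD1 by -3.96 (0.0097) and MYLPF by -6.39 (0.038). Marker levels varied on those arrays too: the luminal list was at 7.40, 8.34, 5.78, 3.61 and 5.80 on the mesenchymal arrays of animals 950, 957, 1040, 1058 and 1109, and the fast muscle list at 2.61 on the mesenchymal array of animal 1040.

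**Figure D5:**
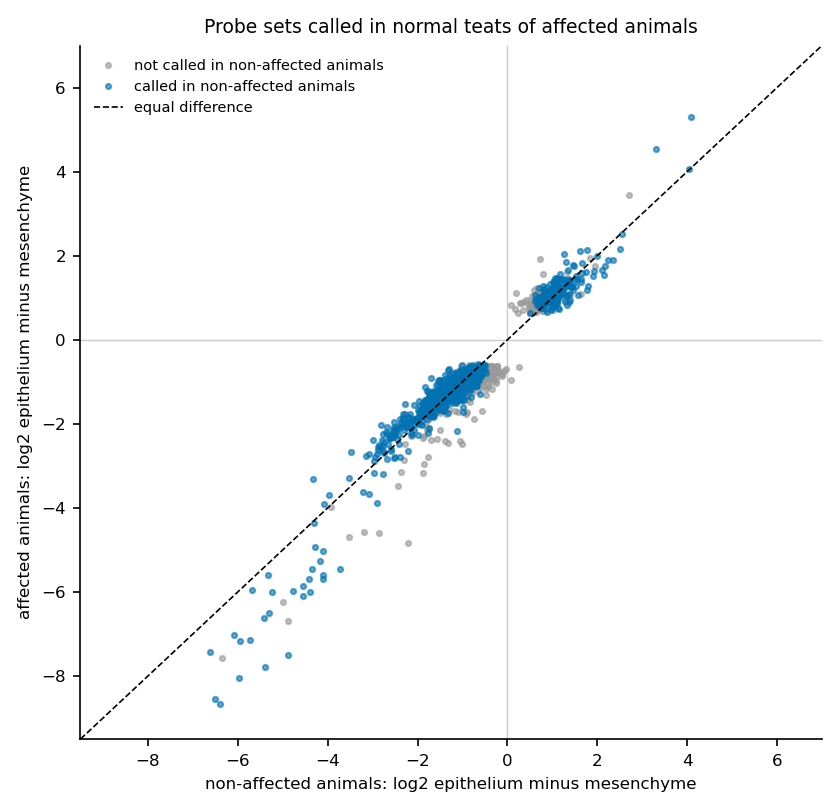
Log2 difference, epithelium minus mesenchyme, of the 1337 probe sets called in normal teats of affected animals (vertical axis) that were also tested in normal teats of non-affected animals (horizontal axis); blue points were called there too, and the dashed line marks equal differences. All but 2 of the points have the same sign in both sets of animals, and MYLPF, at -8.66 in affected and -6.39 in non-affected animals, lies lowest.

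Whether the tissue difference differed between affected and non-affected animals was tested directly, and 0 of 18295 probe sets passed (0%; limma on 10 per-animal differences, 220 with an unadjusted p under 0.05). The fast muscle list had a median difference of differences of -1.55 and the luminal list of 0.36, and MYLPF had -2.27 ± 2.49 (SE). The genes that ranked first by p were ALG14, a subunit of an enzyme of N-glycan assembly (-0.97 ± 0.24, adjusted p = 1), and SLC26A6, an anion exchanger (-1.15 ± 0.29). SLC34A2, a phosphate carrier of epithelia, came next (-3.53 ± 1), with -2.38 in affected and 1.16 in non-affected animals. In the other direction the first genes were AHSG, a plasma glycoprotein (1.01 ± 0.32), FAM107B (0.58 ± 0.2) and LOC396796 (0.51 ± 0.18), all with an adjusted p of 1.

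The same contrast in inverted teats shares its 5 animals with the normal teats. There, 298 probe sets were higher in epithelium (1.74%) and 2197 higher in mesenchyme (12.8%). Of the 278 probe sets higher in epithelium in normal teats 81 were called in inverted teats, 29.1% of the list and 27.2% of the inverted list, and of the 1102 higher in mesenchyme 812 were, 73.7% and 37.0%. Adipocyte genes had similar differences, with ADIPOQ at -2.55 in normal and -3.09 in inverted teats and a list median of -1.79 in normal and -1.87 in inverted teats. Muscle and luminal medians were further apart: the fast muscle median was -6.23 in normal and -2.76 in inverted teats, and the luminal median 2.1 in normal and 0.29 in inverted teats. Direct tests of normal minus inverted teats gave 0 of 18273 probe sets (0%; 704 with an unadjusted p under 0.05), so these differences in size did not pass. The genes first by p were APOA2, an apolipoprotein (-1.23 ± 0.22, adjusted p = 0.89), and RYR1 (-4.63 ± 0.96, adjusted p = 0.89). DEFB1 followed with -1.17 ± 0.25, and in the other direction STEAP4 (1.53 ± 0.4), LGALS8, a galectin (0.82 ± 0.22), and FAM114A1 (0.62 ± 0.16), each with an adjusted p of 0.89. The pieces differed here too, with the fast muscle list at 9.08, 7.77, 8.25, 3.47 and 4.93 on the epithelial and 2.87, 10.08, 11.24, 12.14 and 10.15 on the mesenchymal arrays of inverted teats, and the luminal list at 4.51 on the epithelial array of animal 1103.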

How the data were processed

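Total RNA of teat pieces was hybridised to Affymetrix Porcine Genome arrays after labelling from 500 ng, per the labels' protocols. What the authors deposited is 1 log2 value per probe set and array; the base was inferred from the range. Per the submitters' processing notes the software was GCOS 1.1.1 and PLIER, with no role given, and whether the arrays were normalized to one another is not given in the sources used here. Values were used as deposited. Of 24123 probe sets 124 controls were left out; 10099 carry 1 gene symbol, 198 several and 13826 none here, and 9989 were found in the RefSeq table by Entrez ID. A gene is its brightest probe set over 30 arrays.

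The fit was limma 3.58.1 in R 4.3.3 (lmFit, eBayes) on the 10 arrays with the animal as a fixed block, Benjamini-Hochberg adjustment over all probe sets tested and a threshold of 0.05. A probe set was tested if above its array's 30th percentile on at least 5 arrays (4 of 8 or 3 of 6 when animals were left out). The block follows from both tissues coming from 1 animal; after removal of group means the arrays of an animal correlated with r = 0.40, 0.44, 0.45, 0.00 and 0.05, and in 3 of 5 animals no other mesenchymal array matched better. Differences between tissue differences were fitted on per-animal differences. Simulated data with known changes were used to test the scripts. The number of arrays limits the precision.

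Named genes are the 12 highest and 12 lowest past the threshold, up to 3 members of each list by p in its main direction and 2 in the other (2 where none pass), a fixed set of markers, and the 3 smallest p per direction in each test between differences; not all are printed. The members and the 30 lists were chosen with earlier results of these data known; 7 further lists, the genes so marked and list members outside this rule were chosen after values were seen. Alternatives were the block, normalization, filter, dim values, variance model, probe set per gene and each animal left out.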

Additional observations from a re-analysis of the deposited data

Results flagged for a closer look

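Single arrays that stand apart from the other 4 of their group were sought with Dixon's test among 360 groups of 5 values (143 named genes and 37 list means in each tissue). It marked 33, 19 of them in animal 1037 and 8 in animal 963; chance flags about 1 in 20 groups, and genes of one cell type are not independent.

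The epithelial array of animal 963 was high in skeletal muscle genes: MYH2 at 10.7 (other epithelial arrays up to 2.81), RYR1 at 6.47 (up to 0.9), PGAM2 at 9.29 (up to 4.67), SLN at 9.74 (up to 5.31), MYOZ1 at 8.6 (up to 5.14), PFKM at 7.98 (up to 6.9) and the sarcomere list at 7.62 (up to 4.48). KIT was high there as well, at 8.65.

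The epithelial array of animal 1037 was high in genes of fat cells and lipid synthesis: CIDEA at 9.36, ME1 at 10.02, ACSS2 at 8.22, TKT at 10.77, PGD at 9.46, ACAA1 at 9.52, ALDOC at 10.29, CS at 10.87, PPARG at 8.55, the adipocyte list at 8.49 (others 7 to 7.36) and the fatty acid and triglyceride synthesis list at 8.46. ENG, at 8.6, and RSAD2, at 8.13, were high too. The same array was low in epithelial genes, with KRT19 at 9.91, EPCAM at 8.62, LOC100737113 at 8.08 and the junction list at 7.56, and in U2SURP, at 7.54. On the mesenchymal array of this animal TYR, at 3.65, was low.

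The others were CD3E at 4.33, the immediate early list at 7.75 and the cell cycle list at 5.23 on the epithelial array of animal 964, UCP3 listed at 0 on the epithelial array and the cell cycle list at 5.24 on the mesenchymal array of animal 1059, and the smooth muscle list at 9.71 on the epithelial array of animal 1103.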

How the results depend on the processing

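The count of 1380 probe sets was 4595 with the animal as a random block over all 30 arrays (correlation 0.29), 2129 after quantile normalization (53.6% higher in epithelium, against 20.1% as deposited), 2253 with dim values raised to the 30th percentile, 1820 with a filter at the 50th percentile, 2038 with a trended and robust variance, and 1564 without animals 963 and 964. Without a filter none of 23999 passed (0; 5766 with an unadjusted p under 0.05, smallest adjusted p 0.076). Leaving out 1 animal gave 0 to 1098, with 0 only without animal 1103. The fit with no replicate block gave 1038, and among 95 called named genes 73 kept their call; the others lost it in the same direction, NPG4 keeping it (adjusted p = 0.042) and LTF and WFDC2 not (0.064 and 0.073). No called named gene changed sign under any of these settings. Both tests between tissue differences gave 0 under every alternative run. Of 143 named genes 53 have other probe sets, and for 13 of these 1 or more differ in sign. Limits: 5 animals, luminal markers in the mesenchyme of 2 of them, and dim values on which the size of the largest differences depends; the causes were not tested.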

Other observations

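ACTG1, cytoplasmic gamma actin, did not differ by its brightest probe set (-0.11 ± 0.17, adjusted p = 0.696), but another probe set assigned to it differed by -7.57 (adjusted p = 0.027), within the range of the skeletal muscle genes. TPM2, beta tropomyosin, was at -1.62 by its brightest probe set (adjusted p = 0.0642) and at -5.68 by another (adjusted p = 0.013), while 2 further ones were at -1.01 and 0.23. ACTG1 was named after its values were seen.

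Single genes outside the lists were also higher in mesenchyme, again chosen after their values were seen. GADD45A, a growth arrest gene, read 8.16, 6.2, 7.56, 6.33 and 7.12 in epithelium and 9.59, 7.9, 8.83, 8.43 and 9.72 in mesenchyme (-1.82 ± 0.22, adjusted p = 0.0132), and CEBPB, a transcription factor of fat cell differentiation and acute phase response, differed by -1.32 ± 0.23 (adjusted p = 0.0208). UCP3, the mitochondrial uncoupling protein of muscle, differed by -3.16 ± 0.78, ADM, adrenomedullin, by -1.55 ± 0.39, and ANGPTL4, a fasting-induced inhibitor of lipoprotein lipase, by -1.7 ± 0.43 (adjusted p = 0.046, 0.0474 and 0.0493). UCP3 was under the 30th percentile on 4 of 5 epithelial arrays and listed at 0 on that of animal 1059. With dim values raised to the percentile UCP3 differed by -2.03 (adjusted p = 0.0036). TNFSF10, a death ligand, was higher in epithelium by 1.57 ± 0.3 (adjusted p = 0.0275), and under the 30th percentile on 4 of 5 mesenchymal arrays; with dim values raised to it the call was lost (0.61, adjusted p = 0.067).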
